A study of Mus musculus with 12 samples.

Results

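Liver RNA of 12 mice was read for the enzymes that break down amino acids and dispose of their nitrogen. The list held 45 genes, named for their known roles and chosen with earlier results of these data known. The shares of the list set beside those of all genes below are therefore a description only. Of the 45 genes, 42 had at least 1 probe set (a group of short probes on the array) that named the gene alone. The other 3, Sds, Sdsl and Gls2, had no entry in the table used to name genes and were not analysed here. The 42 measured genes had 63 such probe sets and stood among 18193 genes named in this way on the array. All mice were male, of the C57BL/6 strain, fed a standard diet and 6 to 8 weeks old when the experiment began. The 4 controls (replicates 1 to 4) breathed filtered air in a sham treatment, 4 mice were taken after 4 months of whole-body exposure to secondhand smoke (SHS4m, replicates 66 to 69), and 4 were exposed in the same way and then kept in clean air for 1 more month (replicates 70 to 73, called SHS4m+1m recovery). The study also had sham subgroups with and without a recovery month, and the labels do not say to which of these the 4 controls belonged, so a difference of 1 month in age cannot be told apart from either comparison with them. With whole-body exposure some smoke particles may also be taken up through the skin and by grooming. Each array held RNA from the liver of 1 mouse. In such whole tissue, fewer cells of a type and less RNA per cell cannot be told apart.

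The liver is the main site where most amino acids are degraded. Aminotransferases move the amino group to glutamate or aspartate, the carbon skeletons pass to glucose, fat or energy production, and the urea cycle turns the ammonia set free into urea. Several of these genes are known to be induced by fasting hormones and glucocorticoids, and the asparagine synthetase gene Asns is a classic target of the transcription factor ATF4, which binds a C/EBP-ATF response element when amino acids are short or the cell is stressed.

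Of the 42 genes, 34 had 38 promoters in a RefSeq table for GRCm38.p6 (250 bases before to 50 after each start). The C/EBP-ATF response element was searched as TGATGNAAN on both strands. It was found in 2 of the 38 promoters, those of Asns and Got1 and of no other of the 34 genes, and in 3.95% of all 32851 promoters. These genes also had the largest increases in log2 signal in SHS4m mice among the 42, so their 250 upstream bases are shown, with the matching letters in capitals, 5′ to 3′ on the strand of the gene. The stretch of Asns is chr6:7693210-7693459 on the minus strand, and its match starts at base -23, counted from -1 just before the start. That of Got1 is chr19:43524606-43524855 on the minus strand, and its match starts at base -103 and reads as the motif on the opposite strand.
Asns: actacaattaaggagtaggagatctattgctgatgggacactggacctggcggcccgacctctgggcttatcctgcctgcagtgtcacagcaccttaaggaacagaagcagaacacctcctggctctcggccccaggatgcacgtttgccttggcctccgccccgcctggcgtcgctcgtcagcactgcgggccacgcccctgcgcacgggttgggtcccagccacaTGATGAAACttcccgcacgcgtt
Got1: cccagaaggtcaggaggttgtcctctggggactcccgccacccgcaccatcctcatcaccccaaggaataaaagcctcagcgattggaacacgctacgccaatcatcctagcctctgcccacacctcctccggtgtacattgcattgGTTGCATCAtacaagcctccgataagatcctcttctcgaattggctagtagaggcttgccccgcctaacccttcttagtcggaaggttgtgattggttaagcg
The other motifs searched on both strands were the cyclic AMP element TGACGTCA (in no promoter of the 34 genes and 1.79% of all), the D-box TTATGNAA (Ddc and Otc, 3.38% of all), the E-box CACGTG (Ass1 and Cbs, 7.15% of all) and the glucocorticoid receptor core TGTTCT (Asns, Bckdhb, Haao and Kmo, 19% of all). The response element and the D-box share the letters ATGNAA and differ in the letter before them. A match is a description of the letters and not of a bound site, and its part in any difference was not tested.

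Values below are log2 signals, with signals under 32 raised to 32, and each gene is read by its brightest probe set. A gene is said to have risen or fallen where limma, fitted to all 45037 probe sets other than array controls in 1 model of the 3 groups, gave a two-sided Benjamini-Hochberg adjusted p under 0.05. The array of recovery replicate 72 stood apart in a measure of RNA quality, the signal of actin at its 3' end over that at its 5' end, which grows when RNA is degraded. That ratio was 8.82 there and 3.24 to 4.64 on the other 11 arrays, and the Gapdh ratio was 4.52 against 2.24 to 2.95. The arrays correlated at 0.9718 to 0.9797 within groups and 0.9637 to 0.9754 between groups, and 29.9% to 33.5% of each array lay below 32. None of 7 hepatocyte markers, such as Alb, passed limma's adjusted p in any comparison (2, 0 and 0 had an unadjusted p under 0.05 in SHS4m against controls, recovery against controls and recovery against SHS4m). In SHS4m mice 6 of the 7 differences from controls were below 0, with a median of -0.26. For 5 of the 7 (71.4%) the SHS4m and control arrays did not overlap. That share was 15.5% over all genes and 33.8% over genes with a mean log2 signal of at least 10. The labels give no batch, and no source used here gives the time of day at which livers were taken.

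In SHS4m mice 12 of the 42 enzymes differed from controls, 10 higher and 2 lower. The rises were in Got1, Asns, Asl, Gpt, Prodh, Gpt2, Bckdhb, Nags, Bckdha and Mat1a, and the falls in Csad and Otc. That was 28.6% of the 42, against 7.47% of all 18193 genes (3.73% higher and 3.74% lower). By the study's rule of an unadjusted p under 0.05 and a 2-fold change, 3 passed (Got1 and Asns higher, Csad lower) against 2.81% of all genes. Bright probe sets are called more often, and the enzymes were bright, with a median log2 signal of 13.4 against 7.27 over all genes (signals of different probe sets are not levels on 1 scale). Among genes with a mean log2 signal of at least 10, a limit chosen after seeing the data, 18.5% were called, and of the 38 enzymes above it 11 were called. With each array centred on its median instead, 11 were higher and 1 lower, and the share of higher calls over all genes went from 50% to 63.7%. The groups did not overlap for 22 of the 42 (52.4%), against 15.5% of all genes and 33.8% of the bright genes. The median difference over the 42 was 0.067 against -0.0086 over all genes.

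After the recovery month 5 of the 42 differed from controls. Bckdha, Bckdhb and Gpt were higher, and Ddc and Gldc were lower. This was 11.9% of the 42, against 2.52% of all genes (1.37% higher and 1.14% lower), and 1 (Ddc) passed the study's rule against 1.21% of all genes. Of the bright genes 7.14% were called, and of the 38 bright enzymes 5. With each array centred on its median 2 were called, both lower (Ddc and Gldc), and the share of higher calls over all genes went from 54.6% to 71.6%. The groups did not overlap for 10 of the 42 (23.8%), against 9.56% of all genes and 21.7% of the bright genes, a share near that of the bright genes. The median difference was -0.10 against 0 over all genes. Both comparisons share the 4 control arrays. The recovery count of 5 fell to 2 without control replicate 3, control replicate 4 or recovery replicate 73, and to 3 without control replicate 1 or 2 or recovery replicate 70 or 71, and its median difference was -0.051 without recovery replicate 73. Without recovery replicate 72 the counts were 13 for SHS4m and 4 for recovery against controls, and 8 between recovery and SHS4m.

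Recovery mice were taken 1 month later than SHS4m mice, so a month of age and the month in clean air cannot be told apart between them. Because both groups are set against the same 4 control arrays, this contrast also equals the change in the difference from controls. Between recovery and SHS4m mice 10 of the 42 differed. Csad was higher after recovery, and Got1, Asns, Ddc, Gldc, Asl, Cth, Nags, Gpt and Mat1a were lower. This was 23.8% of the 42, against 3.68% of all genes (2.01% higher and 1.68% lower), and 5 passed the study's rule (Csad higher, and Got1, Asns, Ddc and Tat lower) against 1.93% of all genes. Of the bright genes 8.7% were called, and of the 38 bright enzymes 9. The groups did not overlap for 15 of the 42 (35.7%), against 11.3% of all genes and 22.6% of the bright genes. The median difference was -0.19 against 0 over all genes.

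**Figure D1:**
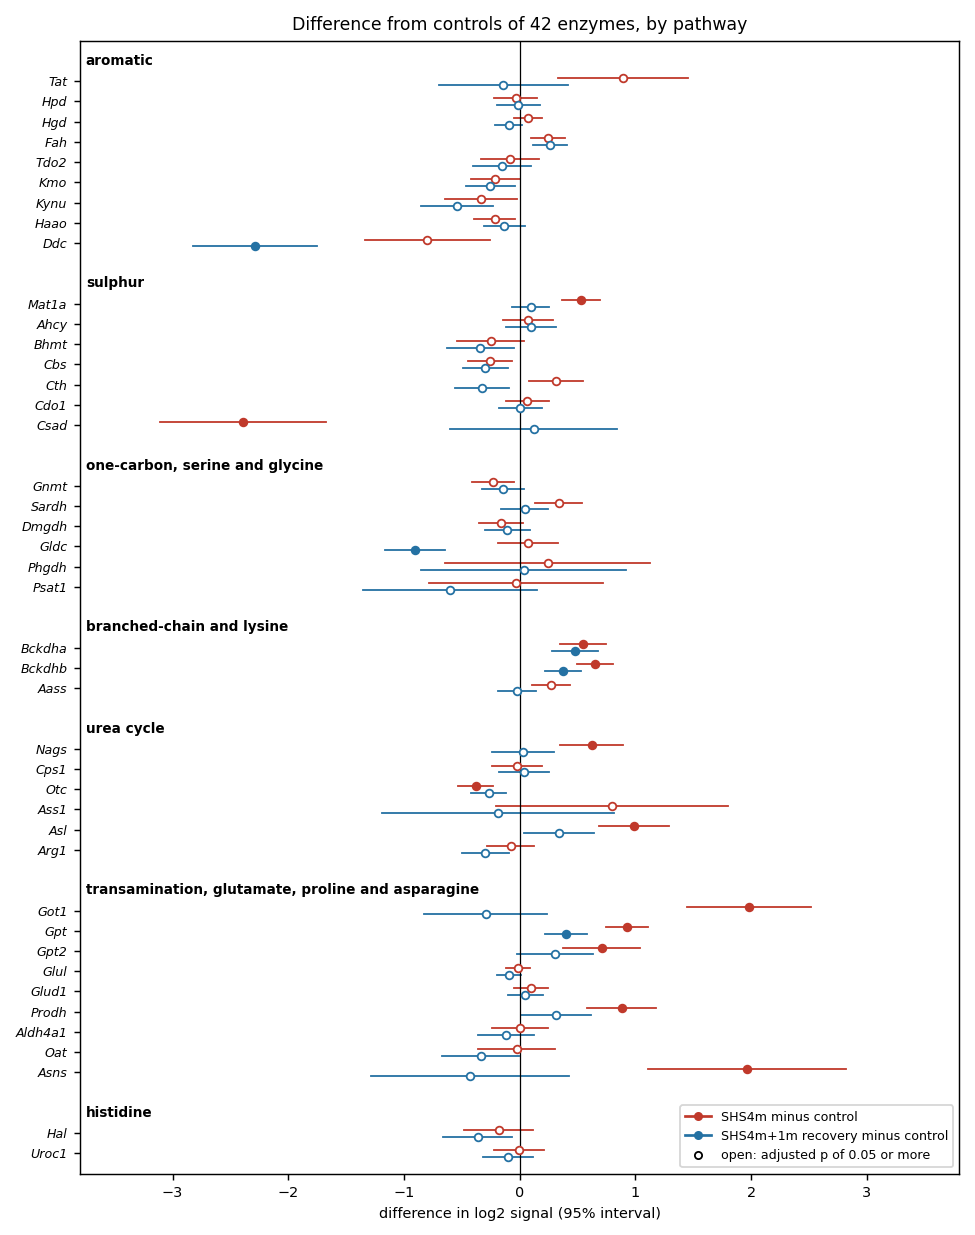
Difference from controls in log2 signal (horizontal axis) of each of the 42 enzymes, grouped by pathway, for SHS4m mice (red) and SHS4m+1m recovery mice (blue). Points are limma estimates from 4 arrays per group, bars are 95% intervals not adjusted for the number of genes, and filled points have an adjusted p under 0.05 (12 red and 5 blue).

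The enzymes that move amino groups, and those of glutamate, proline and asparagine, held 5 of the 10 rises in SHS4m mice (5 of 9 measured). Got1, the cytosolic aspartate aminotransferase, had log2 signals of 11.01, 11.35, 10.72 and 11.14 on the control arrays and 13.08, 12.97, 13.01 and 13.09 on the SHS4m arrays. After recovery they were 11.02, 11.21, 9.99 and 10.82, the lowest on replicate 72. All SHS4m arrays lay above all others, and the recovery and control arrays overlapped. The rise was 3.95-fold (log2 difference 1.98, standard error 0.24, adjusted p = 0.0021). From SHS4m to recovery Got1 fell by 2.28 on the log2 scale (standard error 0.24, adjusted p = 0.0022), and the difference between recovery and controls was -0.29 (adjusted p = 0.675). Asns, which makes asparagine from aspartate, had signals of 8.68, 8.51, 7.49 and 7.44 in controls. They were 9.57, 9.56, 10.62 and 10.23 in SHS4m mice and 7.45, 6.98, 7.90 and 8.06 after recovery. The SHS4m arrays again stood above all others, while controls and recovery overlapped. Asns was 3.91-fold higher in SHS4m mice (log2 difference 1.97, standard error 0.38, adjusted p = 0.0177) and was 5.27-fold lower after recovery than in SHS4m mice (adjusted p = 0.0131). Its rise had an adjusted p of 0.0517 without control replicate 3. A second, dimmer probe set of Asns (1433966_x_at) gave differences of 2.50 (adjusted p = 0.0489) and -2.98 (adjusted p = 0.0393) in the same comparisons.

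Gpt and Gpt2 are the cytosolic and mitochondrial alanine aminotransferases. Gpt (1426502_s_at) read 12.47, 12.52, 12.35 and 12.44 in controls, 13.51, 13.37, 13.33 and 13.28 in SHS4m mice and 13.05, 12.69, 12.89 and 12.76 after recovery. The 3 groups did not overlap, with recovery between the others, and Gpt was the one enzyme that passed the test in all 3 comparisons. The difference from controls was 0.93 in SHS4m mice (1.90-fold, standard error 0.08, adjusted p = 0.000496) and 0.40 after recovery (1.32-fold, adjusted p = 0.0385), and Gpt fell by 0.53 between the exposed groups (adjusted p = 0.0106). The last of these was lost with the mean of all its probe sets (adjusted p = 0.184) and with the 8 arrays compared (0.0525). The call after recovery was lost without any 1 of 10 arrays, namely control replicates 1 to 4, SHS4m replicates 67 to 69 and recovery replicates 70, 72 and 73, with an adjusted p up to 0.105. It was also lost under 6 of the 9 other processing settings, with an adjusted p up to 0.849. A dimmer probe set of Gpt (1453216_at) was not called in any comparison (SHS4m difference 0.68, adjusted p = 0.583). Gpt2 read 13.67, 13.93, 13.74 and 13.44 in controls, 14.50, 14.24, 14.46 and 14.40 in SHS4m mice and 14.33, 13.73, 13.77 and 14.15 after recovery. The SHS4m arrays lay above all controls and overlapped with recovery. The rise was 1.63-fold (log2 difference 0.71, standard error 0.15, adjusted p = 0.0242), and 2 of its 3 other probe sets rose too, by 0.93 (adjusted p = 0.003) and 1.07 (adjusted p = 0.0027). The call of the brightest set was lost without any 1 of control replicates 1, 3 and 4 or SHS4m replicates 66, 68 and 69 (adjusted p up to 0.0665). Prodh, the first enzyme of proline breakdown, read 11.97, 12.11, 12.19 and 12.07 in controls, 13.12, 12.91, 12.75 and 13.08 in SHS4m mice and 12.65, 12.00, 12.41 and 12.53 after recovery. All SHS4m arrays were above all others, and the rise was 1.84-fold (log2 difference 0.88, standard error 0.13, adjusted p = 0.0061). The difference of recovery from controls was 0.31 (adjusted p = 0.343) and from SHS4m -0.57 (adjusted p = 0.0643). Glul, Glud1, Aldh4a1 and Oat, which act on glutamate, glutamine, proline or ornithine, were not called in any comparison by their brightest probe sets. A second set of Glul (1426235_a_at), the glutamine synthetase, was higher in SHS4m mice by 0.36 (adjusted p = 0.0492) and fell by 0.49 from SHS4m to recovery (adjusted p = 0.0251), while the brightest set differed by -0.02 (adjusted p = 0.979) and -0.08 (adjusted p = 0.556).

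**Figure D2:**
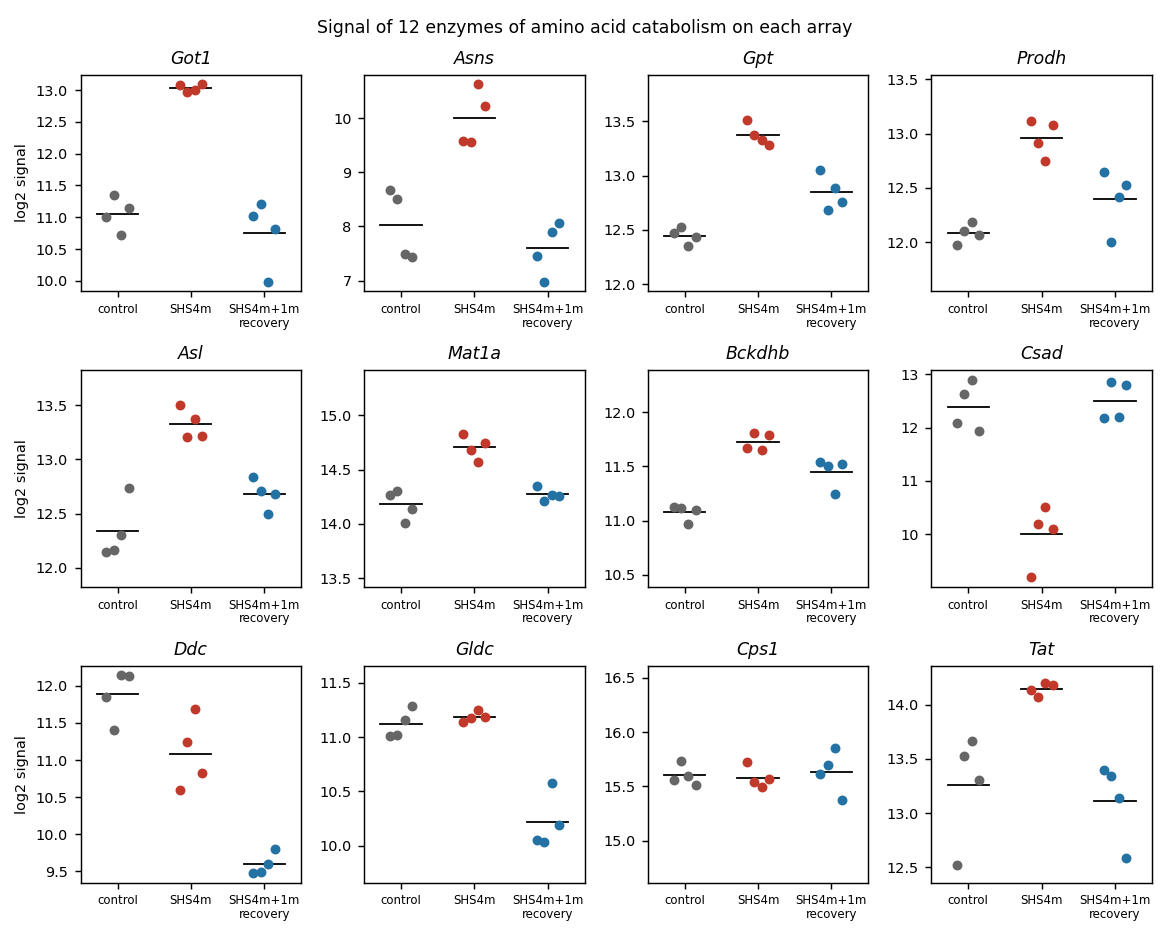
Log2 signal (vertical axis, with its own range in each panel) of 12 enzymes on each of the 12 arrays. Dots are arrays and lines are group means of 4. Got1 and Asns were highest on the 4 SHS4m arrays and Csad was lowest there, Ddc and Gldc were lowest on the 4 recovery arrays, and Cps1 was at a like signal in all 3 groups.

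In the urea cycle 3 of 6 enzymes passed the test in SHS4m mice and none did after recovery against controls by limma, where 3 had an unadjusted p under 0.05. Asl, which splits argininosuccinate into arginine and fumarate, read 12.15, 12.17, 12.30 and 12.74 in controls, 13.50, 13.21, 13.38 and 13.21 in SHS4m mice and 12.84, 12.71, 12.50 and 12.68 after recovery. The SHS4m arrays lay above all others and recovery overlapped with control replicate 4. The rise was 1.98-fold (log2 difference 0.99, standard error 0.13, adjusted p = 0.0037), and Asl fell by 0.64 between SHS4m and recovery (adjusted p = 0.0398). Nags makes N-acetylglutamate, the activator that the first step of the cycle needs. It read 10.38, 10.43, 10.79 and 10.53 in controls, 11.01, 11.24, 11.42 and 10.95 in SHS4m mice and 10.53, 10.71, 10.44 and 10.58 after recovery. It rose 1.54-fold (log2 difference 0.62, standard error 0.12, adjusted p = 0.0175) with an adjusted p of 0.051 without SHS4m replicate 67, and fell by 0.59 between SHS4m and recovery (adjusted p = 0.0358). The falls of Asl and Nags were each lost without any 1 of 9 arrays, with adjusted p up to 0.104 and 0.0907. For Asl these were control replicate 3 and every array of the exposed groups, and for Nags control replicates 2 and 4, SHS4m replicates 66 to 68 and the 4 recovery arrays. Otc, which makes citrulline from ornithine and carbamoyl phosphate, moved in the opposite direction. It read 15.18, 15.13, 15.08 and 15.14 in controls, 14.80, 14.68, 14.79 and 14.74 in SHS4m mice and 14.92, 14.85, 15.03 and 14.66 after recovery, and no exposed array reached a control. The fall was 1.30-fold (log2 difference -0.38, standard error 0.07, adjusted p = 0.0116), and another set of Otc (1436615_a_at) fell by 0.30 (adjusted p = 0.0331) while the dimmest was not called. The fall of Otc in SHS4m mice was lost under median centring (adjusted p = 0.0839), with log2 of the signal plus 32 (0.0783) and with the mean of all its probe sets (0.0603), though the difference stayed below 0. The difference of Otc after recovery was -0.27 (adjusted p = 0.0833). Cps1, which makes carbamoyl phosphate, and Arg1, the arginase that releases urea, were not called. Only under quantile normalization was Cps1 called, as higher in SHS4m mice. Without that normalization Cps1 differed by -0.02 in SHS4m mice (95% interval -0.24 to 0.20) and Arg1 by -0.08 (-0.28 to 0.12). After recovery Cps1 differed from controls by 0.03 (-0.18 to 0.25). Arg1 differed by -0.30 there (-0.50 to -0.09, limma adjusted p = 0.156), and no recovery array reached a control. Ass1, the step before Asl, was named alone only by a dim probe set (1459937_at) whose SHS4m arrays ranged from 7.16 to 9.38 and controls from 6.88 to 7.83 (difference 0.80, adjusted p = 0.424). A brighter set that names Ass1 together with Gm5424 differed by 0.13 (adjusted p = 0.308).

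Bckdha and Bckdhb encode the subunits of the dehydrogenase that commits the branched-chain amino acids to breakdown, and both were higher in SHS4m mice and after recovery. Bckdha read 11.80, 11.73, 11.43 and 11.62 in controls, 12.13, 12.32, 12.12 and 12.20 in SHS4m mice and 12.00, 12.07, 12.29 and 12.14 after recovery. The exposed arrays all lay above the controls and the exposed groups overlapped. The difference from controls was 0.55 in SHS4m mice (1.46-fold, standard error 0.09, adjusted p = 0.0086) and 0.48 after recovery (1.39-fold, adjusted p = 0.0305). Bckdhb read 11.13, 11.12, 10.97 and 11.10 in controls, 11.67, 11.80, 11.65 and 11.79 in SHS4m mice and 11.54, 11.50, 11.24 and 11.52 after recovery, with replicate 72 lowest of the exposed. The groups did not overlap, with recovery between the others. The difference from controls was 0.65 in SHS4m mice (1.57-fold, standard error 0.07, adjusted p = 0.0013) and 0.37 after recovery (1.29-fold, adjusted p = 0.032). The change of Bckdhb from SHS4m to recovery was -0.28 (adjusted p = 0.0822) and of Bckdha -0.07 (adjusted p = 0.849). The recovery calls were lost without single arrays. That of Bckdha was lost without any 1 of control replicates 3 and 4 or recovery replicates 71 to 73 (adjusted p up to 0.0768), and that of Bckdhb without any 1 of the controls or recovery replicates 70, 71 and 73 (adjusted p up to 0.0853). Under the 9 other processing settings, that of Bckdha was lost in 3 (adjusted p up to 0.0995). That of Bckdhb was lost in 5 of them (adjusted p up to 0.157). Aass, the first enzymes of lysine breakdown in 1 protein, differed by 0.27 in SHS4m mice (adjusted p = 0.0668).

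Of the 7 sulphur amino acid enzymes, Csad had the largest fall among the 42 in SHS4m mice. It makes hypotaurine, the precursor of taurine, from cysteine sulfinate. Its signals were 12.09, 12.64, 12.90 and 11.93 in controls, 9.19, 10.20, 10.51 and 10.09 in SHS4m mice and 12.19, 12.85, 12.19 and 12.80 after recovery. All SHS4m arrays were below all others and recovery overlapped with controls. Csad was 5.24-fold lower in SHS4m mice (log2 difference -2.39, standard error 0.32, adjusted p = 0.0035) and 5.69-fold higher after recovery than in SHS4m mice (log2 difference 2.51, adjusted p = 0.0057). After recovery it differed from controls by 0.12 (95% interval -0.60 to 0.84). Mat1a, which makes S-adenosylmethionine from methionine, read 14.26, 14.30, 14.01 and 14.14 in controls, 14.83, 14.68, 14.57 and 14.75 in SHS4m mice and 14.35, 14.21, 14.27 and 14.26 after recovery. The SHS4m arrays were above all others. The rise was 1.44-fold (log2 difference 0.53, standard error 0.07, adjusted p = 0.0038), and Mat1a fell by 0.43 between SHS4m and recovery (adjusted p = 0.0167, and 0.0521 without recovery replicate 71, 0.0641 under median centring and 0.0853 with log2 of the signal plus 32). Cth, which releases cysteine from cystathionine, read 14.06, 14.27, 14.25 and 14.60 in controls, 14.71, 14.51, 14.51 and 14.72 in SHS4m mice and 14.06, 13.91, 14.00 and 13.93 after recovery. It passed the test only between the exposed groups, where it fell by 0.64 (standard error 0.10, adjusted p = 0.0153). Against controls its differences were 0.31 in SHS4m mice (adjusted p = 0.135) and -0.32 after recovery (adjusted p = 0.18). Ahcy, Bhmt, Cbs and Cdo1, which serve the methionine cycle and the path from homocysteine to cysteine and its sulfinate, were not called, with SHS4m differences from -0.26 in Cbs to 0.07 in Ahcy.

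Among the 9 aromatic and 6 one-carbon, serine and glycine enzymes none was called by limma in SHS4m mice (5 and 2 had an unadjusted p under 0.05), and 1 of each was lower after recovery than in either other group. Ddc, which decarboxylates aromatic amino acids, read 11.85, 11.41, 12.14 and 12.13 in controls, 10.59, 11.24, 11.68 and 10.82 in SHS4m mice and 9.48, 9.49, 9.60 and 9.80 after recovery. The recovery arrays lay below all others, while controls and SHS4m overlapped through SHS4m replicate 68. Ddc was 4.89-fold lower after recovery than in controls (log2 difference -2.29, standard error 0.24, adjusted p = 0.0048) and 2.81-fold lower than in SHS4m mice (-1.49, adjusted p = 0.0139). Its SHS4m difference was -0.80 (adjusted p = 0.0981), and its other probe set was at the floor on every array. Gldc, the decarboxylase of the glycine cleavage system, read 11.01, 11.02, 11.16 and 11.29 in controls, 11.14, 11.18, 11.25 and 11.19 in SHS4m mice and 10.05, 10.03, 10.58 and 10.19 after recovery. The recovery arrays were below all others, and control and SHS4m arrays overlapped. Gldc was 1.87-fold lower after recovery than in controls (log2 difference -0.91, standard error 0.12, adjusted p = 0.0079) and 1.97-fold lower than in SHS4m mice (-0.98, adjusted p = 0.0041). Tat, the tyrosine aminotransferase that glucocorticoids are known to induce, had SHS4m signals of 14.13, 14.07, 14.20 and 14.18 above controls at 12.52, 13.52, 13.67 and 13.31. Recovery arrays read 13.39, 13.35, 13.14 and 12.58, and the differences were 0.89 in SHS4m mice (adjusted p = 0.0764) and -1.03 between recovery and SHS4m (adjusted p = 0.0699), so Tat was not called. The rest of the tyrosine path (Hpd, Hgd, Fah) and the tryptophan enzymes (Tdo2, Kmo, Kynu, Haao) had SHS4m differences from -0.33 in Kynu to 0.24 in Fah, with no call.

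Gnmt, Sardh and Dmgdh, which carry methyl groups on and off glycine, and the serine synthesis enzymes Phgdh and Psat1 were not called. Phgdh and Psat1 were near the floor, with mean log2 signals of 5.74 and 5.73, so a change there could have shown only in part. The histidine enzymes Hal and Uroc1 were not called by their brightest sets. In Kynu, Sardh, Tdo2 and Uroc1 another probe set passed where the brightest did not. Kynu 1451903_at differed by -0.83 in SHS4m mice (adjusted p = 0.0497), and Sardh 1448426_at by 0.59 (adjusted p = 0.0119) and by -0.47 between recovery and SHS4m (adjusted p = 0.0485). Between recovery and SHS4m, Tdo2 1455770_at differed by -0.55 (adjusted p = 0.031) and Uroc1 1425003_at by -0.32 (adjusted p = 0.0421). Of 21 other probe sets of 15 genes, 7 passed limma's adjusted p in SHS4m mice, none after recovery (6 had an unadjusted p under 0.05) and 5 between recovery and SHS4m.

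**Figure D3:**
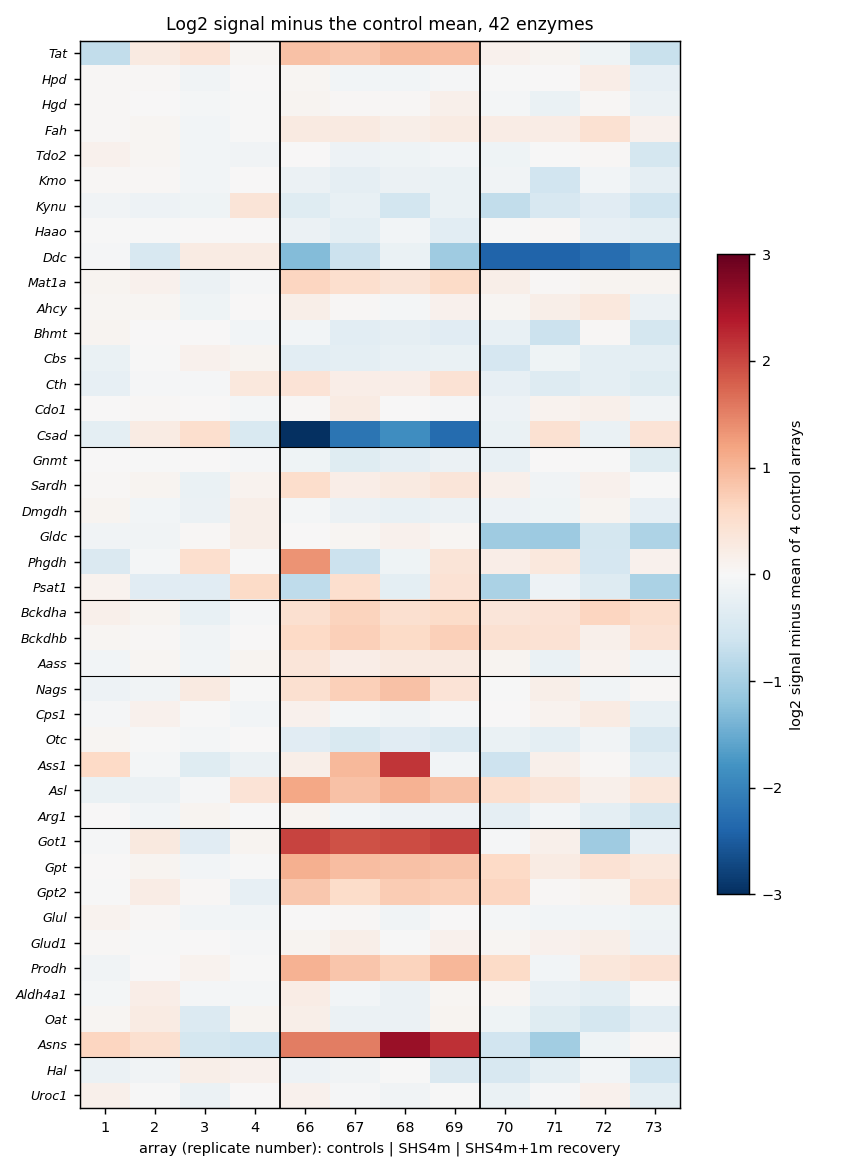
Log2 signal minus the mean of the 4 control arrays (colour, red higher and blue lower, cut at 3 in either direction) of the 42 enzymes (rows, ordered by pathway) on each array (columns, by replicate number). Got1 and Asns were above the control mean on all 4 SHS4m arrays and Csad below it, Ddc was below it on all 4 recovery arrays, and arrays of a group differed in depth of colour, as for Ddc in SHS4m mice (10.59 to 11.68).

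Over the 3 comparisons 27 of the 42 enzymes passed the test in none, and in 23 of those 27 every difference was under 0.5 in size. The other 4 were Tat, Kynu, Psat1 and Ass1. For 21 of the 30 not called in SHS4m mice the 95% interval of the difference lay within 0.5 on the log2 scale in either direction, as it did for 21 of 37 after recovery and 24 of 32 between recovery and SHS4m. Of the 12 called in SHS4m mice, 7 were also called between recovery and SHS4m (Mat1a, Csad, Nags, Asl, Got1, Asns and Gpt). These comparisons share the SHS4m arrays.

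**Figure D4:**
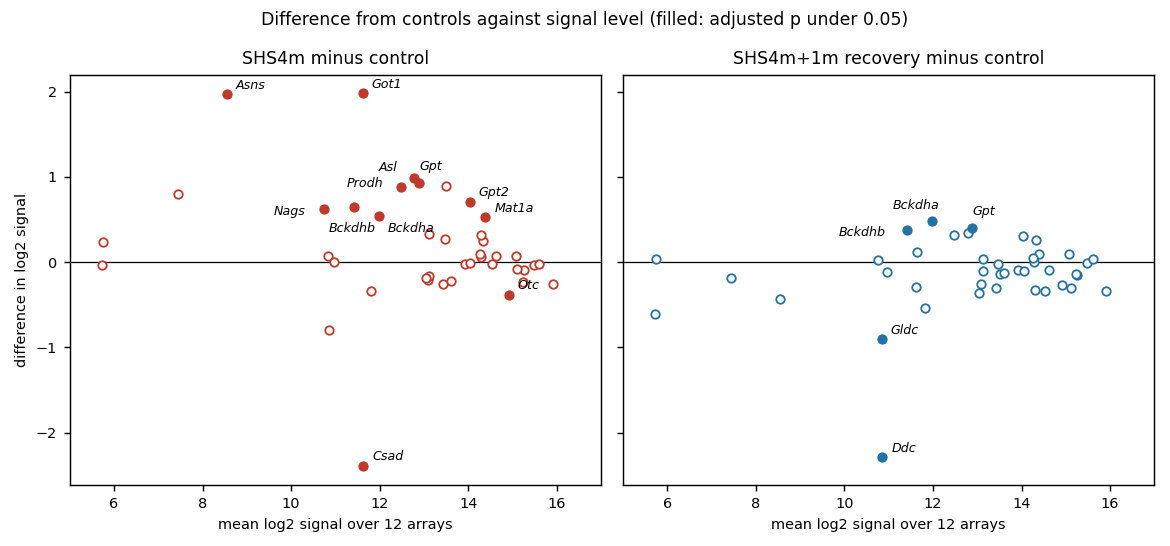
Difference from controls in log2 signal (vertical axis) against the mean log2 signal over 12 arrays (horizontal axis) for the 42 enzymes, in SHS4m mice (left) and after recovery (right). Filled and named points have an adjusted p under 0.05, and Got1, Asns and Csad at left and Ddc at right lie farthest from 0.

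Among 69 other genes measured of the same pathways, 12 passed the test in SHS4m mice, 11 higher and 1 lower. That was 17.4%, near the 18.5% of the bright genes, and after recovery and between recovery and SHS4m the shares were 7.25% and 5.8%, against 7.14% and 8.7% of the bright genes. None of the called differences of these genes reached 1 on the log2 scale in any comparison. The genes next were chosen after their values were seen. Dbt, which encodes another subunit of the branched-chain dehydrogenase, rose by 0.36 (adjusted p = 0.0086), and Auh and Hibch, which act further down leucine and valine breakdown, by 0.52 and 0.32 (adjusted p = 0.002 and 0.0212). They were among 18 other branched-chain and lysine genes, of which 4 (22.2%) were called in SHS4m mice. Of those 18 differences 11 were above 0 and 7 below, with a median of 0.084. Shmt2, which splits serine to glycine in mitochondria, rose by 0.56 (adjusted p = 0.0006), Car5a, which supplies bicarbonate to the urea cycle, by 0.28 (adjusted p = 0.031), and Pcbd1, which recycles the cofactor of phenylalanine hydroxylation, fell by 0.27 (adjusted p = 0.0153). After recovery 5 of the 69 differed from controls, with Sqor, Auh and Prodh2 higher by 0.37, 0.56 and 0.46 and Ethe1 and Ado lower by differences of -0.65 and -0.56. Between recovery and SHS4m, Shmt2, Aldh1l1, Dbt and Slc25a15, the ornithine carrier, were lower by differences of -0.45, -0.29, -0.40 and -0.44.

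Genes known to control these enzymes, or to respond to the same signals, were read beside them. Their lists were chosen with earlier results known, so the shares are a description only. Of 14 genes of the glucocorticoid, glucagon and fasting response, 7 were higher in SHS4m mice, 2 after recovery, and 4 were lower between recovery and SHS4m. That was 50%, 14.3% and 28.6% of the 14. The shares called were 7.47%, 2.52% and 3.68% over all genes and 18.5%, 7.14% and 8.7% over the bright genes. Igfbp1 differed by 3.48 in SHS4m mice (adjusted p = 0.016), the glucocorticoid-responsive Fkbp5 and Zbtb16 by 2.09 and 2.39, the coactivator Ppargc1a by 1.74 and Pck1 of gluconeogenesis by 1.20. Fkbp5 stayed above controls after recovery by 1.29 (adjusted p = 0.0406), while Igfbp1, G6pc, Ppargc1a and Zbtb16 fell from SHS4m to recovery, with log2 differences of -4.38, -1.75, -1.68 and -1.58. The log2 of their summed signal was 15.51 to 15.98 in controls, 16.53 to 16.85 in SHS4m mice and 15.70 to 16.13 after recovery. Of 8 genes of the ATF4 pathway only Vldlr passed, with 0.78 in SHS4m mice (adjusted p = 0.0179). That was 12.5% of the 8 in SHS4m mice, against 7.47% of all genes and 18.5% of the bright genes. In SHS4m mice 4 of the 8 differences were above 0 and 4 below, with a median of -0.18, and 3 had an unadjusted p under 0.05 by limma. The log2 of the summed signal of the 8 was 13.53 to 13.94 in controls, 13.24 to 13.49 in SHS4m mice and 12.89 to 13.54 after recovery. Atf4 itself, named for its role after its value was seen, differed by -0.46 (adjusted p = 0.195) and its target Trib3 by 0.10. Of 14 clock genes, Ciart, Per2 and Tef were higher and Clock lower in both exposed groups. That was 28.6% of the 14 in each. In SHS4m mice 7.47% of all genes and 18.5% of the bright genes were called, and after recovery 2.52% and 7.14%. The log2 differences of Per2, Tef and Clock were 1.32, 1.05 and -1.02 in SHS4m mice and 1.30, 1.23 and -1.18 after recovery, that of Ciart was 2.60 after recovery, and none of the 14 passed limma's adjusted p between the exposed groups (3 had an unadjusted p under 0.05). The part of these genes in the enzymes' differences was not tested.

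Markers of liver cell types moved as follows. Pck1, which is also in the fasting list above, was the 1 of 4 periportal markers that passed in SHS4m mice. Cyp1a2 (0.42) and Lgr5 (-1.03) were 2 of 9 pericentral ones. In SHS4m mice 2 of the 4 periportal differences were above 0 and 2 below, with a median of 0.16. The 9 pericentral differences were above 0 in 5 and below in 4, with a median of 0.16. Of 7 Kupffer cell and macrophage markers Clec4f (-0.51) and Marco (1.90) passed in SHS4m mice. Of the 7 differences 6 were below 0, with a median of -0.35, and 6 had an unadjusted p under 0.05. Marco was the one above 0. The periportal, pericentral and Kupffer lists had 25%, 22.2% and 28.6% called in SHS4m mice. Over all genes that share was 7.47%, and over the bright genes 18.5%. Between recovery and SHS4m, Hsd17b13 of the periportal markers (0.50) and Clec4f (0.46) were higher and Cyp1a2 was lower (-0.50). The periportal differences there were above 0 in 2 and below in 2, with a median of -0.29. Those of the pericentral markers were above 0 in 4 and below in 5, and those of the Kupffer cell and macrophage markers above in 6 and below in 1. No endothelial, stellate, cholangiocyte, lymphocyte, neutrophil or erythroid marker passed limma's adjusted p in any comparison, and by list at most 3 had an unadjusted p under 0.05. The log2 of the summed hepatocyte marker signal ranged from 18.44 to 18.62 in controls, 18.26 to 18.41 in SHS4m mice and 18.11 to 18.77 after recovery, that of pericentral markers from 16.81 to 16.91, 16.71 to 16.82 and 16.52 to 16.98, and that of periportal markers from 15.77 to 15.95, 16.07 to 16.18 and 15.71 to 16.31. For the Kupffer cell and macrophage markers it was 13.94 to 14.21, 13.63 to 13.94 and 13.71 to 14.15. No marker was at the floor on all 12 arrays. The periportal sum includes Pck1, which was higher by 1.20 in SHS4m mice. The part of these shifts in the enzymes' differences was not tested.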

How the data were processed

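The authors hybridised liver RNA to Affymetrix mouse genome arrays and summarised probe sets in Affymetrix Expression Console, and the deposited values are intensities, not log-transformed, scaled so that every array has a mean of 500 once 2% of its values are trimmed from either end. No source used here names the summarisation algorithm. Intensities under 32 were raised to 32 and log2 was taken. With limma 3.58.1 (R 4.3.3), 1 model of 3 groups was fitted to 45037 probe sets, with Benjamini-Hochberg adjustment over all of them (64 array controls left out). Genes were named through a platform table of 35890 probe sets, of which 932 name several genes, and the brightest probe set naming a gene alone stands for it. Genes called in at least 1 comparison are given on every array. Of the pathway, regulator and clock lists, genes called with a log2 difference of at least 1 are named. Also named, below that limit, are Vldlr, Atf4, Trib3 and the pathway genes given above. Of the cell type markers every called gene is named. The members and lists were chosen with earlier results of these data known. The script was tested on simulated data. Alternatives were quantile normalization, median centring, floors of 16 and 64, log2 of the signal plus 32, a filter at 64, the mean of all probe sets of a gene, the 8 arrays compared, robust trend moderation and leaving out each array. Replicates are separate mice as far as the study's methods say, and their number limits the precision. Promoters are from RefSeq, and figures were drawn with matplotlib.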

Additional observations from a re-analysis of the deposited data

Results flagged for a closer look

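Some single arrays lay far from the other 3 of their group, by a gap over the group's range above Dixon's limit for 4 samples. These were Hpd on control replicate 3 (15.4, the others 15.52 to 15.54), Kynu on control replicate 4 (12.49, the others 11.95 to 11.99), Bckdhb on control replicate 3 (10.97, the others 11.1 to 11.13) and on recovery replicate 72 (11.24, the others 11.5 to 11.54), and Aldh4a1 on control replicate 2 (11.19, the others 10.93 to 10.95). They are 5 of 126 groups of 4 tested, and chance marks about 1 in 20.

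The difference from controls changed between SHS4m and recovery mice in 10 enzymes, by limma's adjusted p for the contrast of the exposed groups. The change in log2 difference was 2.51 for Csad, -2.397 for Asns, -2.277 for Got1, -1.491 for Ddc, -0.9758 for Gldc, -0.6444 for Asl, -0.6382 for Cth, -0.5926 for Nags, -0.5275 for Gpt and -0.4334 for Mat1a. Both differences share the control arrays, which cancel in the change, and the exposed groups were taken 1 month apart, so age may be part of it.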

How the results depend on the processing

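No result reversed under the alternatives. The count in SHS4m mice (12) was 11 to 14 under the other settings, with Otc lost under median centring, log2 of the signal plus 32 and the mean of all probe sets (adjusted p up to 0.0839), Gpt lost under the last (0.0722) and Nags with the 8 arrays compared (0.056), while Tat was called under median centring and with the filter at 64. Fah and Cps1 were called under quantile normalization, Kynu and Sardh with the mean of all probe sets, and Fah, Kmo and Aass with the 8 arrays compared. The recovery count against controls (5) was 7 under quantile normalization (gaining Fah and Otc), 4 with the mean of all probe sets, 5 with a floor of 64 or robust trend moderation, 2 under median centring, 3 with a floor of 16, 2 with log2 of the signal plus 32, 3 with the filter at 64 and 1 with the 8 arrays compared, where Gldc had an adjusted p of 0.0553. The other recovery calls lost in these settings were those of Bckdha, Bckdhb and Gpt, as given above. The count between recovery and SHS4m (10) was 7 to 13, with Mat1a, Nags and Asl lost under median centring and log2 of the signal plus 32 (adjusted p 0.0616 to 0.0853), Asl under quantile normalization (0.0512), Nags with the 8 arrays compared (0.0756) and Gpt as given above. The study's rule of an unadjusted p and a 2-fold change gave 3, 1 and 5 for SHS4m and recovery against controls and recovery against SHS4m. Median centring moved the median difference to 0.145 in SHS4m mice and -0.025 after recovery, and the median of all genes to 0.069 and 0.079. It also moved the share of higher calls over all genes from 50% to 63.7% and from 54.6% to 71.6%. Leaving out 1 array gave counts of 10 to 14, 2 to 5 and 7 to 11, and medians of 0.0445 to 0.0728, -0.122 to -0.0508 and -0.216 to -0.15. The causes were not tested. No paired analysis was possible because the groups share no replicate numbers. Signals near the floor show only part of a change.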
